A study of Arabidopsis thaliana with 9 samples.

Results

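The nuclear genes for subunits of both photosystems and for the proteins that carry electrons between and beyond them were examined in the ntrc mutant of Arabidopsis thaliana. They are 31 loci of the 32833 in the deposited expression table, chosen by locus. They fall into 12 genes of photosystem I (PSA), 10 of photosystem II (PSB), 7 of electron carriers (PETC, PETE, FD and LFNR) and 2 of the ATP synthase (ATPC1 and ATPD). RNA was sequenced from 3 libraries of ntrc adult leaves, 3 of ntrc seedlings and 3 of wild type (Col-0) seedlings. Adult plants were 8 weeks old, had grown on soil under a short-day photoperiod at 125 µE per square metre and second, and gave young rosette leaves after 2 h of light, with 3 plants in each library. Seedlings were 6 days old and had grown on MS, a mineral salt medium, in continuous light of the same intensity. No source used here gives the ntrc allele, and no adult wild type library is analysed, so adult leaves are set only against ntrc seedlings.

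Photosystem II uses light to take electrons from water, the cytochrome complex passes them on to the copper protein plastocyanin, and photosystem I lifts them with a further photon to ferredoxin, from which ferredoxin-NADP reductase makes NADPH. The ATP synthase uses the proton gradient built along the way. The reaction centre proteins are encoded in the plastid, while the genes described here lie in the nucleus, and their products are imported into the chloroplast. NTRC is a chloroplast NADPH-dependent thioredoxin reductase with its own thioredoxin domain, and it keeps chloroplast enzymes reduced.

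Levels are given as FPKM, a count of sequenced fragments scaled by transcript length and library total, obtained from deposited log2(FPKM + 1) values. Differences are given on that log2 scale. NTRC (AT2G41680) stood at 16.4, 19.6 and 17.4 FPKM in ntrc seedlings against 130, 175 and 141 FPKM in wild type seedlings, a difference of -2.98 (SE 0.13; adjusted p = 0.000588, limma with Benjamini-Hochberg), and at 16.1, 15.1 and 16.2 FPKM in ntrc adult leaves. The 31 genes held 6.01%, 7.67% and 7.22% of the summed FPKM of ntrc seedling libraries 1 to 3, against 5.50%, 7.07% and 6.47% of wild type seedling libraries 1 to 3. Wild type library 1 was the lowest of the 6 seedling libraries for 27 of the 31 genes, whereas it was the lowest for 30.0% of all 18818 genes tested. The 11 tested of 13 root markers averaged 0.56 to 0.65 (log2) in ntrc adult leaves and 3.64 to 3.67 in ntrc seedlings. In wild type seedlings they averaged 3.48 to 3.79, with the lowest of these in wild type library 1. PLT1, PLT2, EXPA7, RHD6 and NRT2.1 were listed at 0 in all adult libraries. Their means, in that order, were 1.37, 0.779, 8.24, 2.40 and 0.254 FPKM in ntrc seedlings. In wild type seedlings they were 1.27, 1.03, 7.86, 2.86 and 0.0521 FPKM. PLT2 and NRT2.1 were not among the 11 tested, and a 0 says little for genes so low in seedlings. The 6 green tissue markers averaged 9.69 to 9.81 in ntrc adult leaves, 11.07 to 11.22 in ntrc seedlings and 11.07 to 11.45 in wild type seedlings, where library 1 had 11.10. The part of tissue make-up in what follows was not tested. In RNA from whole seedlings, fewer green cells and less of a transcript per green cell cannot be told apart.

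All 31 genes passed the filter on low values, and the lowest single value was 108 FPKM (PETE1 in ntrc adult library 2). Within photosystem II the order was led in each group by PSBR, a small subunit on the lumen side, at 1948 ± 163 FPKM in ntrc adult leaves, 3991 ± 611 FPKM in ntrc seedlings and 3683 ± 705 FPKM in wild type seedlings (mean ± SD, n = 3 each). The lowest gene of all 31 in each group was PETE1, the minor plastocyanin, at 110 ± 2.16, 200 ± 43.9 and 174 ± 39.5 FPKM in ntrc adult leaves, ntrc seedlings and wild type seedlings. PSBR stood 17.7-fold above PETE1 in ntrc adult leaves and 21.2-fold above it in wild type seedlings, with ntrc seedlings between. In wild type seedlings PSBO1, PSBP1, PSBX and PSBW followed PSBR, each step holding in 3 of 3 libraries, and the order of those 5 was the same in ntrc seedlings. In adult leaves PSBP1 stood above PSBO1 in 3 of 3 libraries. Photosystem I genes were closer together, with a span of 3.68-fold in ntrc seedlings and 3.62-fold in wild type seedlings. PSAF stood above PSAG in 2 of 3 ntrc seedling libraries, while in wild type seedlings it was sixth in mean level and stood above PSAE1 in 2 of 3. Of the 30 steps between neighbours in the whole order, 23 held in all 3 ntrc adult libraries, 14 in all 3 ntrc seedling libraries and 13 in all 3 wild type libraries.

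In 6-day-old seedlings the photosystem I genes had slightly higher values in ntrc than in wild type, photosystem II genes differed less and electron carriers lay on both sides of 0, and no member passed the test. Of the 31 genes, 27 had a fitted difference above 0 (ntrc minus wild type), against 51.2% of the 18818 genes tested, and their median was 0.16, against 0.0040 for all genes. None passed limma at a Benjamini-Hochberg adjusted p of 0.05 over all genes, where 0.0266% of all genes passed, and none passed with the replicate number as a block, where 0.388% did. At an unadjusted p below 0.05 there were 0 of 31 without the block (5.01% of all genes) and 12 of 31 with it (11.6% of all genes), of which 11 were higher in ntrc (7.31% of all genes). A higher value in ntrc was seen in each of 3 pairs of equal replicate number for 22 of 31 genes, as for 18.7% of all genes, and FD1 was lower in each, as 15.2% of all genes were. The 31 values are not independent, since they come from the same 6 libraries, and 27 of the 31 genes were lowest in the same one. Quantile normalization left 18 of the 31 differences above 0 (median 0.0070), and so did the omission of wild type library 1 (median 0.020). Without ntrc library 1 the median was 0.30, without ntrc library 2 it was 0.066, and without wild type library 2 it was 0.30.

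**Figure D1:**
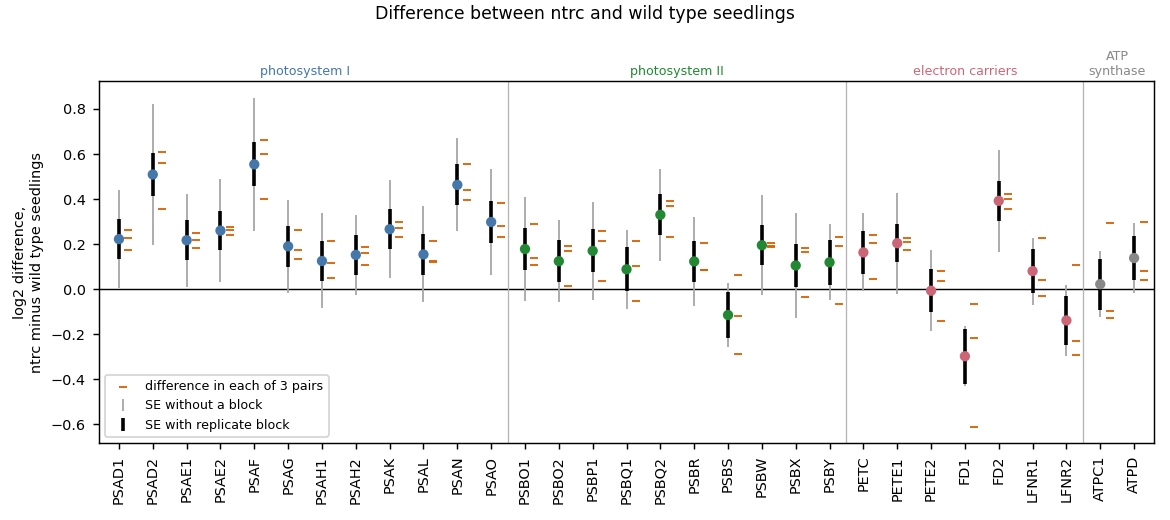
Log2 difference between ntrc and wild type seedlings for each gene (points, coloured by group of genes), with the limma standard error with the replicate block (thick black) and without it (thin grey), and with each of the 3 within-pair differences as orange dashes. All 12 photosystem I points lie above 0, FD1 is the lowest at -0.30 and PSAF the highest at 0.55.

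Every one of the 12 photosystem I genes had a value above 0 in each of 3 pairs. The median difference was 0.24, with a range of 0.12 to 0.55. These genes share the same libraries, and the pairing was taken from the values, so the 12 are not separate results. PSAF (AT1G31330), the subunit at which plastocyanin docks, was at 1613, 2896 and 2489 FPKM in ntrc seedlings 1 to 3, against 1065, 1829 and 1884 FPKM in wild type seedlings 1 to 3. Libraries 2 and 3 of ntrc lay above all wild type libraries, and library 1 did not. The log2 difference was 0.55 (SE 0.29, adjusted p = 0.948) without a block and had an SE of 0.098 and an adjusted p of 0.0877 with it (limma, Benjamini-Hochberg). PSAN (AT5G64040), a small lumen subunit that helps plastocyanin to bind, was at 969, 1464 and 1336 FPKM in ntrc seedlings, against 736, 1081 and 908 FPKM in wild type seedlings. Its first ntrc library was below the second wild type library, so the groups overlapped. The difference for PSAN was 0.46 (SE 0.21), with adjusted p of 0.948 without a block and 0.103 with it (limma, Benjamini-Hochberg).

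PSAG (AT1G55670), a membrane subunit at the edge of the complex with the highest mean level in photosystem I over the 6 seedling libraries, was at 1767, 2606 and 2405 FPKM in ntrc seedlings, against 1610, 2312 and 2004 FPKM in wild type seedlings. The groups overlapped and the difference was 0.19 (SE 0.21; adjusted p = 0.958 by limma with Benjamini-Hochberg). PSAD2, one of the pair of genes for the stromal subunit where ferredoxin docks, had a difference of 0.51, and its partner PSAD1 had 0.22. The pair for PSAE, the other stromal docking subunit, had 0.22 (PSAE1) and 0.26 (PSAE2). The genes for PSAH, PSAL and PSAO, which form the side that takes up mobile antenna, had 0.12 (PSAH1), 0.15 (PSAH2), 0.15 (PSAL) and 0.30 (PSAO), and PSAK, another membrane subunit, had 0.27. With the block 8 of the 12 had an unadjusted p below 0.05 by limma (11.6% of all genes). In photosystem II 1 of 10 did, among electron carriers 3 of 7 and in the ATP synthase 0 of 2. Without the block it was 0 in each of these groups. The block rests on a pairing taken from the same values, and genes measured in the same libraries are not independent. The photosystem I median was 0.053 with quantile normalization (10 of 12 above 0) and 0.067 without wild type library 1 (10 of 12). It was 0.11 without ntrc library 2, 0.41 without ntrc library 1 and 0.38 without wild type library 2. PSAF, PSAN and PSAD2 stayed above 0 in each of 17 alternatives, between 0.29 and 0.80, 0.32 and 0.64, and 0.21 and 0.76. PSAE1, PSAE2, PSAG, PSAH2, PSAK and PSAO also stayed above 0, with lowest values from 0.016 (PSAG) to 0.075 (PSAO). PSAD1, PSAH1 and PSAL did not.

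Photosystem II genes differed less. Of 10 genes 9 had values above 0, with a median of 0.12, and 6 were higher in each of 3 pairs. PSBQ2 (AT4G05180), one of the pair of genes for an extrinsic subunit of the water-splitting complex, was at 652, 1009 and 931 FPKM in ntrc seedlings, against 556, 782 and 709 FPKM in wild type seedlings. Libraries 2 and 3 of ntrc exceeded all wild type libraries, and library 1 exceeded only wild type library 1. Its difference was 0.33 (SE 0.20), with adjusted p of 0.948 without a block and 0.205 with it (limma, Benjamini-Hochberg). PSBW (AT2G30570), a small membrane subunit, was at 1406, 2157 and 1930 FPKM in ntrc seedlings, against 1235, 1887 and 1674 FPKM in wild type seedlings, a difference of 0.19 (SE 0.22; adjusted p = 0.960, limma, Benjamini-Hochberg). For PSBW the groups overlapped as well.

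PSBR (AT1G79040), the most abundant of the 31, was at 3405, 4625 and 3944 FPKM in ntrc seedlings, against 2958, 4366 and 3724 FPKM in wild type seedlings. Wild type library 1 lay below all ntrc libraries and ntrc library 2 above all wild type libraries, while the others overlapped, with a difference of 0.12 (SE 0.20). PSBS (AT1G44575), which senses lumen acidity and starts the thermal release of excess light energy, was the only photosystem II gene with a value below 0. It was at 1024, 990 and 945 FPKM in ntrc seedlings, against 1111, 1211 and 905 FPKM in wild type seedlings, a difference of -0.12 (SE 0.14). The other extrinsic subunits of the water-splitting complex had 0.18 (PSBO1), 0.12 (PSBO2), 0.17 (PSBP1) and 0.088 (PSBQ1), and the small subunits PSBX and PSBY had 0.10 and 0.12. The photosystem II median turned to -0.067 with quantile normalization, where 3 of 10 were above 0, and to -0.023 without wild type library 1, where 2 of 10 were. It was 0.057 without ntrc library 2, and 0.26 without ntrc library 1 or without wild type library 2.

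The electron carriers went in both directions, with 4 of 7 above 0 and a median of 0.080, and the ferredoxins differed most from each other. FD2 (AT1G60950), the main leaf ferredoxin, was at 1384, 2030 and 2015 FPKM in ntrc seedlings, against 1033, 1585 and 1527 FPKM in wild type seedlings. Libraries 2 and 3 of ntrc were above all wild type libraries and library 1 was not. The difference was 0.39 (SE 0.23), with adjusted p of 0.948 without a block and 0.136 with it (limma, Benjamini-Hochberg). FD1 (AT1G10960), the minor leaf ferredoxin, was at 530, 449 and 515 FPKM in ntrc seedlings, against 616, 686 and 539 FPKM in wild type seedlings. It was the only one of the 31 whose groups did not overlap. Of all genes tested 4.37% were separate in this direction and 5.39% in the other, where none of the 31 was, so these counts are no higher than the background. The difference for FD1 was -0.30 (SE 0.13), with adjusted p of 0.948 without a block and 0.420 with it (limma, Benjamini-Hochberg). It lay between -0.41 and -0.14 over 17 alternatives, while FD2 lay between 0.20 and 0.57.

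PETE2 (AT1G20340), the major plastocyanin, was at 2049, 2582 and 2500 FPKM in ntrc seedlings, against 1996, 2845 and 2363 FPKM in wild type seedlings. These groups lay on each other, with a difference of -0.0070 (SE 0.18), and the minor form PETE1 had 0.20 (SE 0.22). PETC, the Rieske iron-sulfur protein of the cytochrome complex, had 0.16. The genes for the leaf ferredoxin-NADP reductases had 0.080 (LFNR1) and -0.14 (LFNR2). For the ATP synthase, ATPC1 (AT4G04640), the gamma subunit with a redox-switched disulfide, was at 550, 620 and 591 FPKM in ntrc seedlings, against 589, 677 and 482 FPKM in wild type seedlings. ATPD (AT4G09650), the delta subunit, was at 609, 773 and 734 FPKM in ntrc seedlings, against 576, 752 and 598 FPKM in wild type seedlings. Both overlapped between genotypes, with differences of 0.022 (SE 0.15) and 0.14 (SE 0.15). PETE2 and ATPC1 were above 0 in some alternatives and below 0 in others. The median of the carriers was -0.010 with quantile normalization, 0.0050 without wild type library 1, 0.012 without ntrc library 2, 0.024 without wild type library 3, 0.17 without ntrc library 1 and 0.20 without wild type library 2.

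Further lists of the pathway had medians near or below 0. In none of the lists did a gene pass over all genes by limma with Benjamini-Hochberg adjustment, with or without the block. Factors for the assembly and repair of photosystems had 6 of 16 above 0 with a median of -0.025. PSB28, which binds an assembly form of photosystem II, and Y3IP1, which acts in photosystem I assembly, had -0.14 and -0.18. Genes of cyclic electron flow and the chloroplast NDH complex had 4 of 20 above 0 and a median of -0.084, with -0.41 for PNSL3 (SE 0.27) and -0.18 for NDHT (SE 0.11), both subunits of that complex. Without wild type library 2 those counts were 13 of 16 and 11 of 20.

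Among 16 tested genes for other electron transport proteins, kinases and phosphatases, 10 were above 0 with a median of 0.030. With the block 4 of 16 had an unadjusted p below 0.05 by limma (11.6% of all genes). In each of 3 pairs 5 were higher in ntrc (18.7% of all genes) and 2 lower (15.2%). Among those 5 were PETM (0.35), PSBTN (0.265) and CURT1B (0.21), differences as large as those of many photosystem I genes. CYTC6A, a cytochrome of the lumen, was at 21.7, 21.6 and 26.0 FPKM in ntrc seedlings, against 20.2, 21.0 and 16.2 FPKM in wild type seedlings. Its groups did not overlap, and its difference was 0.26 (SE 0.12, adjusted p = 0.948 by limma with Benjamini-Hochberg). It was 1 of 16 separate in this direction, against 5.39% of all genes, and was named for its small p within the list. PTOX, the plastid terminal oxidase, had -0.20 (SE 0.099). Regulators of photosynthesis genes had 3 of 10 above 0 with a median of -0.075, with -0.27 for SIG4 and -0.14 for SIG2, sigma factors of the plastid RNA polymerase. Green tissue markers, enzymes of carbon fixation, had 1 of 6 above 0 with a median of -0.081 (GAPB -0.15, CA1 -0.083). Their medians in pairs 1 to 3 were -0.051, -0.25 and 0.075, and CA1 was 0.045 without wild type library 2. The count and median of these markers were not recomputed with a library left out. Root markers had 9 of 11 above 0 with a median of 0.091. WOX5, a regulator of the root stem cell niche, had 0.29 (SE 0.16). Its levels were close to the filter of 1 FPKM and overlapped. They were 1.385, 1.95 and 1.98 FPKM in ntrc seedlings, against 1.51, 0.902 and 1.38 FPKM in wild type seedlings. ESB1, needed for the Casparian strip of the root endodermis, was at 4.93, 5.80 and 6.54 FPKM in ntrc seedlings, against 10.4, 12.7 and 7.83 FPKM in wild type seedlings. Its groups did not overlap, with a difference of -0.72 (SE 0.17, adjusted p = 0.948 by limma with Benjamini-Hochberg). ESB1 was 1 of 11 separate in this direction, against 4.37% of all genes, and was likewise named for its small p.

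A ratio of FPKM between paralogues within a library does not depend on how the library was scaled. In 8 pairs the coding sequences were at most 88.0% identical over aligned bases (PSAD1 and PSAD2), with 79.6% for the ferredoxins and 80.0% for PSBQ, and the longest run of identical bases in the transcripts was 17 to 35. Reads longer than such a run differ between the copies, but no source used here gives the read length or how reads that fit both were handled, so these levels carry that uncertainty. In seedlings, FD2 stood to FD1 as 2.61, 4.53 and 3.91 in ntrc libraries, against 1.68, 2.31 and 2.84 in wild type libraries. Library 1 of ntrc was within the wild type range, and libraries 2 and 3 were above it. The ratio was 3.68 ± 0.977 in ntrc seedlings and 2.28 ± 0.581 in wild type seedlings (mean ± SD, n = 3), a log2 difference of 0.69, and higher in each of 3 pairs by 0.64, 0.97 and 0.46. The p of the FD2 to FD1 ratio by exact permutation (two-sided) was 0.2, where 3 against 3 cannot go below 0.1, and 0.32 after Benjamini-Hochberg adjustment over the 8 pairs.

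PSAD1 stood to PSAD2 as 1.92, 1.58 and 1.70 in ntrc seedlings, against 2.51, 2.06 and 1.81 in wild type seedlings, with a log2 difference of -0.29. For PSBQ1 over PSBQ2 the ratios were 1.66, 1.38 and 1.44 in ntrc seedlings, against 1.81, 1.85 and 1.63 in wild type seedlings, with -0.24. Both were lower in each of 3 pairs, yet the groups overlapped by 1 library. PETE2 over PETE1 had a log2 difference of -0.21, LFNR1 over LFNR2 0.22, PSBO1 over PSBO2 0.053, PSAE1 over PSAE2 -0.043 and PSAH1 over PSAH2 -0.026. No pair was separate between the genotypes of seedlings.

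**Figure D2:**
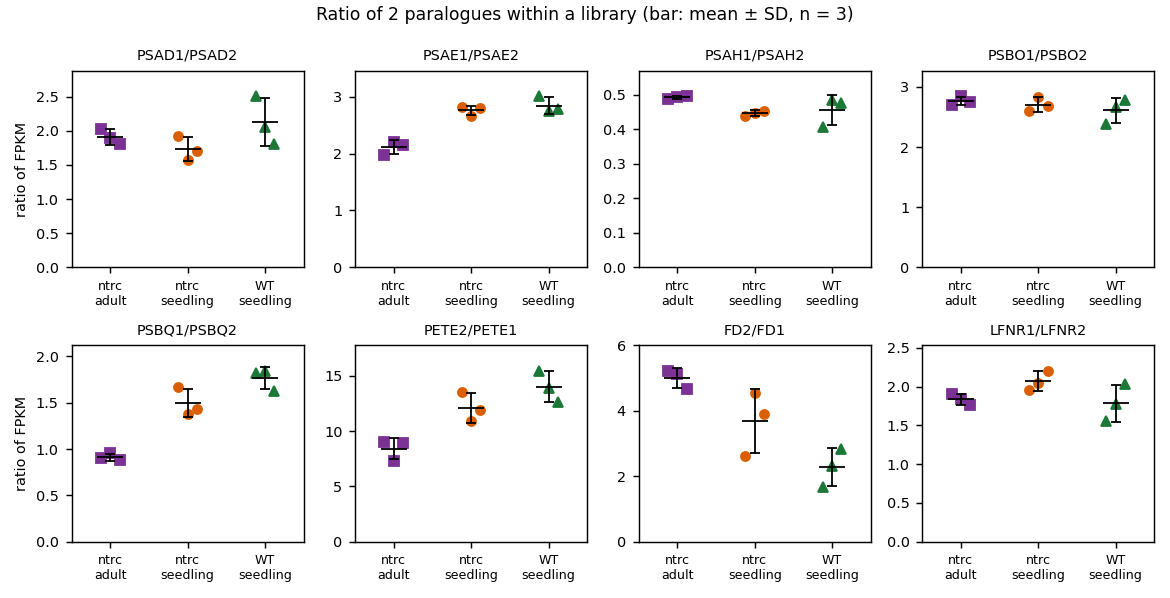
Ratio of the FPKM of 2 paralogues in each library for 8 pairs, with ntrc adult leaves, ntrc seedlings and wild type seedlings side by side (points are libraries, bars are mean ± SD, n = 3, and axes start at 0). The PSBQ1 to PSBQ2 ratio is below 1 in adult leaves and above 1 in seedlings, and FD2 to FD1 is highest in adult leaves.

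Paralogue ratios were also set side by side between adult leaves and seedlings of ntrc. PSBQ1 over PSBQ2 was 0.902, 0.953 and 0.880 in ntrc adult leaves, against 1.66, 1.38 and 1.44 in ntrc seedlings, a log2 difference of -0.71, so the more abundant copy was PSBQ2 in adult leaves and PSBQ1 in seedlings. FD2 over FD1 was 5.22, 5.12 and 4.65 in adult leaves, against 2.61, 4.53 and 3.91 in ntrc seedlings, with a difference of 0.48 (0.25 without ntrc seedling library 1). The plastocyanin ratio PETE2 over PETE1 was 8.97, 7.33 and 8.92 in adult leaves, against 13.6, 10.9 and 11.9 in ntrc seedlings, with -0.53. These ranges did not overlap. PSAE1 over PSAE2 was 1.97, 2.21 and 2.14 in adult leaves, against 2.81, 2.66 and 2.80 in ntrc seedlings, with -0.39. PSAH1 over PSAH2 was 0.488, 0.493 and 0.495 in adult leaves, against 0.437, 0.448 and 0.453 in ntrc seedlings, with 0.14. LFNR1 over LFNR2 was 1.91, 1.84 and 1.76 in adult leaves, against 1.96, 2.04 and 2.21 in ntrc seedlings, with -0.17. In those 6 pairs the groups did not overlap, which gives the smallest p an exact two-sided permutation test allows here, 0.1 (0.133 after Benjamini-Hochberg adjustment over 8 pairs). No pair passed, and separation is common between these groups. On a scale relative to the mean of the 31, 63.1% of 18986 expressed genes were separate. That share is for single genes, and none was computed for ratios. The count of 6 of 8 is therefore not read as a result about these pairs. The PSAD and PSBO pairs overlapped, with 0.15 and 0.033. Stage, tissue, growth, light regime and library kit differ together between these groups and cannot be told apart.

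The sequences just upstream of the ferredoxin and PSBQ genes are shown because these pairs had the largest differences in balance, a choice made after the values were seen. They are the 250 bases before the annotated gene start on the coding strand, 5′ to 3′, from RefSeq (TAIR10.1), with capitals for the motifs searched on both strands: CACGTG (G-box), CCAATC (found upstream of many genes that respond to GLK factors) and GATAAG (I-box). FD2 lies on chromosome 1 (plus strand, window chr1:22444057-22444306), FD1 on chromosome 1 (plus strand, window chr1:3663937-3664186), PSBQ1 (AT4G21280) on chromosome 4 (plus strand, window chr4:11334102-11334351) and PSBQ2 (AT4G05180) on chromosome 4 (minus strand, window chr4:2673244-2673493).
FD2: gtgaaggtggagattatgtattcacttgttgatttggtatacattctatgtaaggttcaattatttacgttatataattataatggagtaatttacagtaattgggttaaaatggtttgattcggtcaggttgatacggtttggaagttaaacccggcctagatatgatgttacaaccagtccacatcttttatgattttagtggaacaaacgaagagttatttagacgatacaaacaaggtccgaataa
FD1: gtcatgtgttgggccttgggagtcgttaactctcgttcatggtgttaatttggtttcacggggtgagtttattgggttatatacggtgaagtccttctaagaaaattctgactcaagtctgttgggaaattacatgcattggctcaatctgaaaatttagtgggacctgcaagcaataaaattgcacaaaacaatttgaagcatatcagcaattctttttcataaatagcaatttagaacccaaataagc
PSBQ1: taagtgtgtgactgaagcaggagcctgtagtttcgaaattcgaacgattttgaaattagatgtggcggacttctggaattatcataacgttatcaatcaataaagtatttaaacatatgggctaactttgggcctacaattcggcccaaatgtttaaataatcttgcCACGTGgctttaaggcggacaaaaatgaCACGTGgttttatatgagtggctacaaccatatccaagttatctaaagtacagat
PSBQ2: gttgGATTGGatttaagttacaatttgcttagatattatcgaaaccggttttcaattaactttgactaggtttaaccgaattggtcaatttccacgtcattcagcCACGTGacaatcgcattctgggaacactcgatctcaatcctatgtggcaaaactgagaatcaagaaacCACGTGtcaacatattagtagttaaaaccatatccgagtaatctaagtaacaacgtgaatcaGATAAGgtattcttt
Neither ferredoxin window held any of the 3 motifs. Both PSBQ windows held 2 copies of CACGTG, with first bases 83 and 55 before the start of PSBQ1 and 145 and 77 before that of PSBQ2, and the PSBQ2 window also held CCAATC (as its reverse complement GATTGG) and GATAAG. None of these matches overlapped another motif. Over all 31 windows CACGTG was in 5 (6.49% of 27443 windows of protein-coding genes held it), CCAATC in 4 (10.2%) and GATAAG in 8 (12.3%). By group, GATAAG was in 4 of 12 photosystem I windows, 1 of 10 of photosystem II, 3 of 7 of electron carriers and 0 of 2 of the ATP synthase. In the same order, CACGTG was in 2 of 12, 2 of 10, 0 of 7 and 1 of 2. For CCAATC it was 0 of 12, 1 of 10, 2 of 7 and 1 of 2.

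The mean log2 level of the 31 genes was 10.01, 10.47 and 10.36 in ntrc seedlings 1 to 3, against 9.82, 10.36 and 10.13 in wild type seedlings 1 to 3. Not every gene followed this mean: FD1 was lowest of all 6 seedling libraries in ntrc library 2, where the mean was highest. Set relative to the mean log2 level of the 31 in the same library, 3 genes were higher in ntrc than in wild type seedlings without overlap (0.882% of all genes) and 2 were lower (1.88% of all genes). PSAN stood at -0.085, 0.051 and 0.028 in ntrc seedlings, against -0.30, -0.28 and -0.30 in wild type seedlings, so its relative level was higher by 0.29. PSBQ2 was higher by 0.16 and PSAK by 0.096, while PETE2 had a difference of -0.18 and PSBO2 one of -0.046. PSAF, with 0.38, and FD1, with -0.47, overlapped on this scale. The 31 genes themselves set the mean that defines this scale, so the shares over all genes are no like-for-like background.

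Composition within the 31 genes also differed by group. Photosystem I genes made up 34.8%, 36.2% and 35.8% of the summed FPKM of the 31 in ntrc adult leaves, 39.4%, 42.7% and 41.6% in ntrc seedlings and 37.2%, 38.5% and 40.0% in wild type seedlings. The adult libraries lay below all seedling libraries, while ntrc and wild type seedlings overlapped by 1 library. Photosystem II genes made up 44.5%, 44.4% and 44.0% in ntrc adult leaves, 41.9%, 40.6% and 40.8% in ntrc seedlings and 42.5%, 42.9% and 42.2% in wild type seedlings. For photosystem II the 3 groups did not overlap, with ntrc seedlings lowest. The difference from wild type seedlings was -1.44 percentage points (-1.86 to -1.17 with any 1 seedling library left out), and no test was run. The shares of a library add up to the whole, so a lower share of one group goes with a higher share of others. A lower share is not by itself a lower level: 9 of the 10 photosystem II genes had a fitted difference above 0 (ntrc minus wild type). No gene among them passed the test, and the direction was not stable. With quantile normalization 3 of 10 were above 0, and without wild type library 1 it was 2 of 10. Electron carriers made up 17.4% ± 0.644 in ntrc adult leaves, 14.9% ± 0.738 in ntrc seedlings and 15.9% ± 0.823 in wild type seedlings, and the ATP synthase genes 2.73% ± 0.028, 2.76% ± 0.236 and 2.98% ± 0.497 (mean ± SD, n = 3 each). An FPKM share weighs abundant genes most, so it follows genes such as PSBR, PSBO1 and PSAF.

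**Figure D3:**
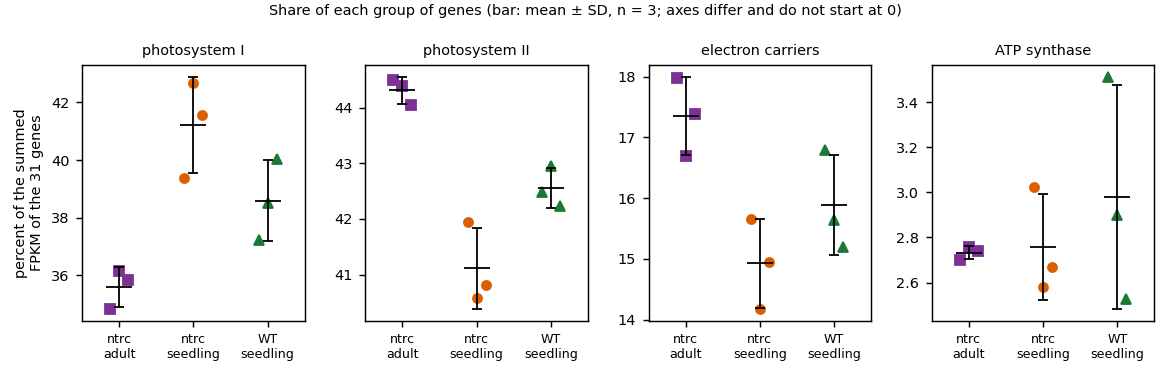
Percent of the summed FPKM of the 31 genes held by each group of genes, per library (points) with mean ± SD (n = 3), for ntrc adult leaves, ntrc seedlings and wild type seedlings; the axes differ and do not start at 0. Photosystem I shares are 34.8% to 36.2% in adult leaves and 37.2% to 42.7% in seedlings.

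Set relative to the mean log2 level of the 31 genes in the same library, 11 genes were higher and 13 lower in ntrc adult leaves than in ntrc seedlings without overlap, and 7 overlapped. Measured the same way, 44.1% of 18986 expressed genes were separate and higher and 19.0% separate and lower. In either direction 63.1% were separate, so separation as such is common between these groups. The 31 genes set the mean of this scale, so their own differences cancel out around it. The shares over all genes are therefore no like-for-like background for the split into 11 and 13. In photosystem I 7 of 12 were relatively lower in adult leaves and 2 were higher. PSAH2 was at -0.49 ± 0.042 in ntrc adult leaves and 0.18 ± 0.008 in ntrc seedlings, a difference of -0.67, and PSAD2 and PSAH1 had -0.57 and -0.53. PSAO was higher by 0.32 and PSAN by 0.14.

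In photosystem II, PSBR (0.54) and PSBP1 (0.43) were relatively higher in adult leaves, and PSBY (-0.50) and PSBQ1 (-0.45) were lower. Among carriers PETE1 (0.73), FD2 (0.64) and PETE2 (0.20) were relatively higher, and PETC (-0.10) was lower. The relative FD2 level was 1.17 ± 0.106 in ntrc adult leaves and 0.52 ± 0.096 in ntrc seedlings (mean ± SD, log2, n = 3). The ATP synthase genes went apart, with 0.34 for ATPC1 and -0.23 for ATPD. The summed FPKM of the 31 genes was 15310 to 17390 in ntrc adult leaves, against 38300 to 54000 in ntrc seedlings, on scales that differ between the stages.

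**Figure D4:**
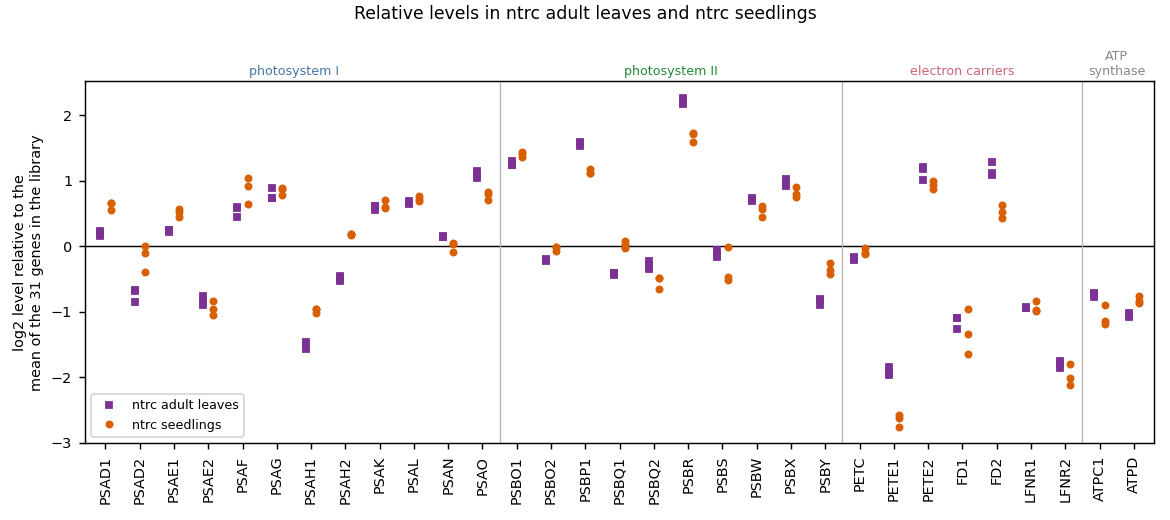
Log2 level of each gene minus the mean log2 level of the 31 genes in the same library, for 3 ntrc adult libraries (purple squares) and 3 ntrc seedling libraries (orange circles). PETE1 and FD2 lie higher in adult leaves by 0.73 and 0.64, and PSAH2 lower by 0.67.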

How the data were processed

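Expression was measured by RNA sequencing in 9 libraries, 3 per group. Per the submitters' processing notes, FastQC, HISAT2 and StringTie were used with genome build TAIR10, with no versions or settings. The kits differed, per the labels' protocols: total RNA with ribosomal RNA removed for adult leaves, mRNA for seedlings, both strand-specific, while all samples are labelled polyA RNA. The authors deposited 1 table of log2 values, read here as log2(FPKM + 1). With the logarithm undone, 98.4% of 321 low values were whole multiples, within 0.1, of a single step per library, as for FPKM written with 6 decimals and multiplied by 1 factor per library (0.884 to 1.12). The deposited upper quartile was 3.70 in each seedling library and 2.44 in each adult library, so the stages were scaled apart. The table holds no counts, so depth is unknown and precision rests on 3 libraries. The labels' design calls the libraries biological replicates.

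Seedlings were compared with limma 3.58.1 (R 4.3.3; mean trend, robust, two-sided) on deposited log2 values, over the 18818 genes that reached 1 FPKM in 3 or more of the 6 libraries, with Benjamini-Hochberg adjustment over all of them and a threshold of 0.05. A fold change is on the log2(value + 1) scale. The method was tested on simulated data with noise independent between genes and between libraries. That setting held no shared library effect and no pairing, so it does not bear on either. Deviations from group means correlated between equal replicate numbers with 0.506, 0.406 and 0.278 and between different numbers with -0.388 to 0.115. The numbers were therefore taken to pair the seedling libraries, a pairing read from the values and not stated by the labels. Deviations cancel out within a group, so positive values for equal numbers force lower ones for different numbers. The contrast between them is thus partly built in, and p-values with the block depend on this pairing. The fit without a block is the main one. Ratios and shares were computed in Python 3.11.15, with exact permutation tests from scipy 1.17.1. The members and lists were chosen with earlier results of these data known. Named in full are, in each group of genes, the most abundant gene and those with the 2 smallest p, pairs whose ratio separates, and from each further list those with the 2 smallest p. PSBS was added after its value was seen, and so were PETM, PSBTN and CURT1B. Gene positions and upstream windows come from the RefSeq annotation of TAIR10.1, used only within that build. Alternatives were other pseudocounts, filters and scalings, the block, and leaving out each library or pair. Protein sequences are not used here.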

Additional observations from a re-analysis of the deposited data

How the results depend on the processing

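None of the 31 genes passed the threshold in any of the 17 alternatives to the fit without a block, and the smallest adjusted p was 0.0877 (PSAF, replicate block, limma with Benjamini-Hochberg). The block changed no call among the 31 genes or the further lists. Other pseudocounts, filters and median ratio scaling turned no direction. Quantile normalization, with and without the replicate block, turned 9 genes: PSAD1 (-0.016), PSAL (-0.080), PSBO1 (-0.16), PSBO2 (-0.030), PSBP1 (-0.11), PSBQ1 (-0.017), PSBR (-0.10), PSBX (-0.10) and LFNR1 (-0.010), and left 3 of 10 photosystem II genes above 0. With the deposited scaling taken off, chosen after seeing the data, ATPC1 was -0.0070, 1 of 2 ATP synthase genes was above 0, and 2 of 20 cyclic flow and NDH genes were. In blocked fits, PETE2 was 0.060 without pair 2 and ATPC1 -0.11 without pair 3. Leaving out 1 library gave ranges of -0.071 to 0.28 for PSAH1, -0.026 to 0.30 for PSAL, -0.031 to 0.33 for PSBO1, -0.020 to 0.26 for PSBO2, -0.017 to 0.32 for PSBP1, -0.029 to 0.23 for PSBQ1, -0.026 to 0.26 for PSBR, -0.10 to 0.28 for PSBX, -0.0030 to 0.27 for PSBY, -0.13 to 0.12 for PETE2, -0.11 to 0.14 for ATPC1 and -0.16 to 0.045 for CA1. Counts above 0 then ranged from 2 to 9 for photosystem II, 1 to 2 for ATP synthase, 3 to 13 for assembly and repair, 2 to 11 for cyclic flow and NDH, and 2 to 5 for regulators. The cause of these shifts was not tested. Leaving out 1 library, the FD2 over FD1 difference between seedling genotypes was 0.49 to 0.92, those of PSBO1 over PSBO2 (-0.010 to 0.10) and PSAH1 over PSAH2 (-0.11 to 0.019) took both signs, and the other paralogue differences kept theirs. Within-pair differences (replicate block, n = 3) gave the same means, for example 0.69 for FD2 over FD1 with an exact sign-flip p of 0.25, the smallest it allows. Changes as small as most of these cannot be told from the spread of 3 libraries per group.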
